A study of Mus musculus with 9 samples.

Results

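The genes described here are 10 members of the p53 and Rb pathways and of their cell cycle inhibitors, namely Trp53, Mdm2, Cdkn1a, Cdkn1b, Cdkn2a, Cdkn2b, Cdkn2c, Rb1, Ccng1 and Ccnd1. They were chosen by symbol, out of 23337 genes in the table, and all 10 were found in it. Messenger RNA was measured by RNA sequencing in immortalised mouse embryonic fibroblasts (MEFs) of mixed C57BL/6 x 129 background that lack C/EBPβ (Cebpb-ko). C/EBPβ is a transcription factor whose mRNA is translated into long activating isoforms, LAP1 and LAP2, called LAP here, and a short isoform, LIP. LIP binds the same DNA sites without an activation domain. The study asked how LAP and LIP each change the transcriptome in cells that make neither. EV cells carried the empty vector, LAP cells a plasmid with rat C/EBPβ-LAP, and LIP cells a plasmid with rat C/EBPβ-LIP, each with 3 libraries. All 9 libraries therefore share the Cebpb deletion, the immortalised state, a stable transfection and Zeocin selection. How the line was immortalised, and whether the libraries of a group came from separate transfections, clones or cultures, is not given in the sources used here, so p-values measure only the spread between these libraries.

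The p53 protein, encoded by Trp53, is a transcription factor that is stabilised by DNA damage and oncogene signals and that halts the cell cycle or induces cell death. Mdm2 is the ubiquitin ligase that degrades p53 and is itself a p53 target gene, as are Cdkn1a, which encodes the CDK inhibitor p21, and Ccng1, which encodes cyclin G1. Rb, encoded by Rb1, holds back E2F transcription factors until cyclin D1 (Ccnd1) with CDK4 or CDK6, and then cyclin E with CDK2, phosphorylate it. The Ink4 inhibitors (p16Ink4a from Cdkn2a, p15 from Cdkn2b and p18 from Cdkn2c) block CDK4 and CDK6, whereas p21 and p27 (Cdkn1b) mainly inhibit cyclin E and cyclin A kinases. Cdkn2a also encodes p19Arf, from another promoter and reading frame, which inhibits Mdm2 and so links both pathways. Cultured MEFs build up p16Ink4a and p19Arf with passage, and cell lines that escape senescence have often lost p53 or this locus. Counts of mRNA do not show whether a protein is functional.

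Of the p53 target genes among the members, Cdkn1a and Ccng1 had a match to the p53 response element in the promoter windows used here, and the window of Mdm2 had no match within the limits searched. The windows run from 250 bases before to 50 bases after each start site in RefSeq on GRCm38.p6. The window of Ccng1 (chr11:40755237-40755536, minus strand) and the upstream window of Cdkn1a (chr17:29090729-29091028, plus strand) are shown for this element, which stands in capitals and begins 195 and 51 bases before the start site, respectively. The windows of Cdkn2a are shown because this gene had the lowest p of the 10 in LIP against EV and is read from 2 promoters, the upstream one (chr4:89294570-89294869, minus strand) for p19Arf and the downstream one (chr4:89282143-89282442, minus strand) for p16Ink4a.
Ccng1: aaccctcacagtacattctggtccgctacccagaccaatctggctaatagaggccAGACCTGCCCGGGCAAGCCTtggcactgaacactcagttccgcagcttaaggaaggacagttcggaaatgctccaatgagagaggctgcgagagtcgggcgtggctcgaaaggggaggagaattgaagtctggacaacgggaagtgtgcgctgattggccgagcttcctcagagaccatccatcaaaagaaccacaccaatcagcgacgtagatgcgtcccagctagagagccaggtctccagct
Cdkn1a, upstream start: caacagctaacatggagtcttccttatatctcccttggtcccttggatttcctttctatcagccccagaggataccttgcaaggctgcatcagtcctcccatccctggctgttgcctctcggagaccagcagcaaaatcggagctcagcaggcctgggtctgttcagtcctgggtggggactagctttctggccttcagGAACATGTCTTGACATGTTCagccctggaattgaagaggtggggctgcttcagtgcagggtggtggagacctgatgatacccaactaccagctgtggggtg
Cdkn2a, upstream start: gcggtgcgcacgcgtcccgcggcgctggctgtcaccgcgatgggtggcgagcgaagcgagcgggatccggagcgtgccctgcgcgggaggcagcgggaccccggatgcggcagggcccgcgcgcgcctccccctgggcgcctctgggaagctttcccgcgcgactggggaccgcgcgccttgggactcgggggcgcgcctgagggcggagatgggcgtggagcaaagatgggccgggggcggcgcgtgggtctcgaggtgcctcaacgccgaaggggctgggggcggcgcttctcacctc
Cdkn2a, downstream start: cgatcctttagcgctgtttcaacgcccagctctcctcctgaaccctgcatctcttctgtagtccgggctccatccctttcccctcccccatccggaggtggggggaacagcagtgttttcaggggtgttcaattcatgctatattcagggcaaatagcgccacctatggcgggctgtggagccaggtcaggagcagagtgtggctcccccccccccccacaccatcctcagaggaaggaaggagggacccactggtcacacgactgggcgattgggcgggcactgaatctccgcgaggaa
The element was searched as 2 abutting p53 half-sites with at most 1 mismatch in all, and 0.0883% of 32851 windows held it. It lay in 2 of the 11 member windows, which belong to 8 of the genes. The C/EBP sequence TTGCNNAA, searched on both strands, lay in 1 of the 11 windows (Cdkn2c, chr4:109665323-109665622, minus strand) and in 10.8% of all windows, and its palindromic form TTGCGCAA, which is part of the first search, lay in 0 member windows and 0.183% of all. The E2F sequences TTTGGCGC and TTTCGCGC, on either strand, lay in 0 member windows and 0.813% of all, and the CCAAT box in 6 and in 37.4%. These matches describe the letters of the windows and not binding.

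All 10 genes were detected in every library, with 140 counts (Trp53 in LAP library 2) as the lowest value. Libraries held 24839139 to 33522082 counts on genes. Levels are given in CPM, that is counts scaled to a common library size with TMM factors from all 9 libraries, and means carry the SD of 3 libraries. The floor of 3 counts, which covers counting error only, corresponds to 0.0895 to 0.121 CPM. Counts on Cebpb did not check the groups (30.3, 25.2 and 30.5 CPM in EV, 33.2, 25.5 and 30.2 CPM in LAP and 33.3, 28.3 and 31.8 CPM in LIP). EV cells thus had Cebpb counts although they lack C/EBPβ and carry no insert, and the source of these counts was not tested. The plasmids carry the rat sequence, and what share of the LAP and LIP counts comes from them was not tested. LIP library 2 stood apart most in scaling, with a normalisation factor of 1.10, against 0.949 to 1.02 in the other 8 libraries. Of 10 fibroblast markers, the collagens, Fn1, Vim and S100a4 made up nearly all of the summed level, whereas Pdgfra and Pdgfrb were low (2.41 and 1.06 CPM in EV, 2.10 and 1.04 CPM in LAP and 0.937 and 0.326 CPM in LIP). Of the 10, 9 had a log2 fold change below 0 in LIP against EV, and their summed level was 35259 to 39728 CPM in EV, 29442 to 43170 CPM in LAP and 17012 to 30253 CPM in LIP. The defining markers of other cell types Pecam1, Ptprc, Hbb-b1, Myod1 and Plin1 had 0 counts in every library, as did Myc and Vegfa. How reads shared by several transcripts of a gene were counted is not given, so 0 counts are not read as absence. The summed markers of endothelial, blood, and muscle and fat cells reached at most 3.64, 8.22 and 1.99 CPM. Those of epithelial cells reached 246.6 CPM, nearly all from Krt14.

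Levels can be compared between members only per length, and only for some of them. Of the 10 genes, 6 have a single RefSeq transcript, whereas Trp53, Cdkn1a, Cdkn2a and Cdkn2c have 2, and 5.14%, 60.8%, 50.9% and 66.8% of their exonic bases lie in just 1 of these. Across the table, the third quartile of mean counts per kb of exonic length was 428 among 13608 genes with 1 transcript and 91.6 among 1666 genes with several transcripts that share at least 90% of their bases. Vegfa, with 5 transcripts, and Myc, with 2, had 0 counts in all libraries. How reads that several transcripts of a gene share were counted is not given in the sources used here, so the 4 members with 2 transcripts are not ranked against the rest. Fold changes between groups compare a gene with itself. Whether transcript use of the 4 members with 2 transcripts differed between groups, and so entered their fold changes, was not tested.

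**Figure D1:**
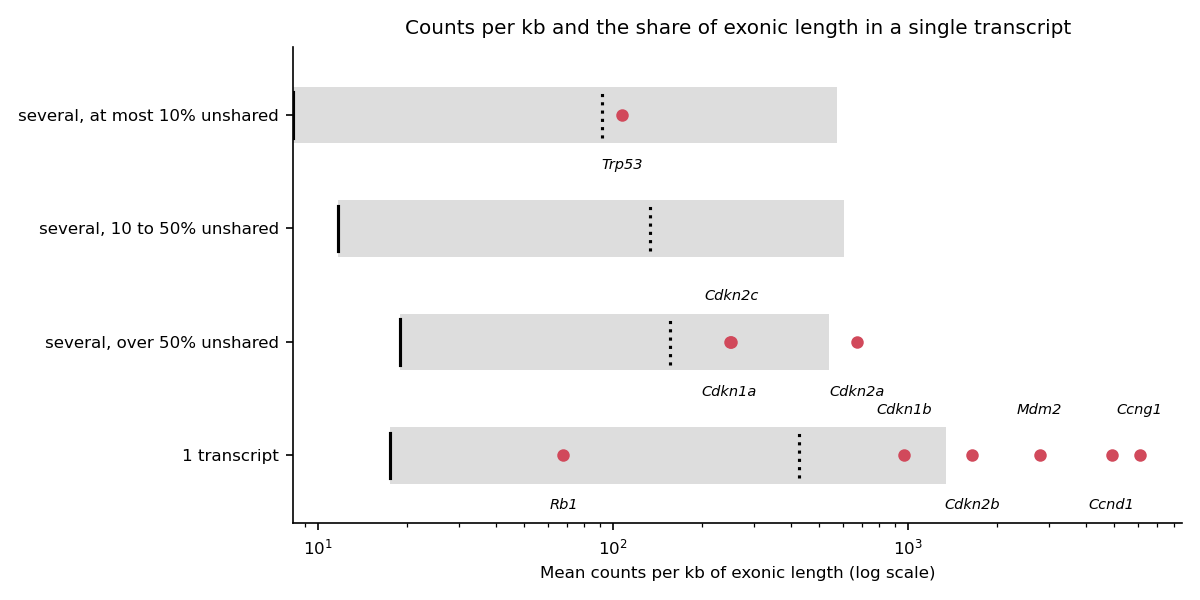
Mean counts per kb of exonic length over the 9 libraries (x axis, log scale) for genes grouped by the share of exonic bases that lie in a single RefSeq transcript (y axis). Grey bars run from the median to the 90th percentile of all genes in the class, the dotted line is the third quartile and red points are the 10 members. Among the members with a single transcript, Rb1 lies lowest at 67.9 and Ccng1 highest at 6098.

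Among the 6 members with 1 transcript, Ccng1 and Ccnd1 were the most abundant per length. Over the 9 libraries, Ccng1 had 6098, Ccnd1 4904, Mdm2 2792, Cdkn2b 1651, Cdkn1b 973 and Rb1 67.9 mean counts per kb. The order of Ccnd1 and Ccng1 was not distinguishable from library spread, with 191 ± 39.4 and 178 ± 34.8 CPM per kb in EV and 147 ± 42.6 and 239 ± 77.5 CPM per kb in LIP (SD, n = 3). Rb1, with 2.34 ± 0.598 CPM per kb in EV (SD, n = 3), was more than an order of magnitude below the next gene.

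In the main fit, none of the 10 genes passed the threshold in any of the 3 comparisons. An adjusted p under 0.05 in edgeR's quasi-likelihood test was reached in LIP against EV by 0.396% of 18203 genes, in LAP against EV by 0.0606% of 18156 and in LIP against LAP by 1.05% of 18166. At these shares, 0 of 10 is no result about the members. DESeq2's Wald test and edgeR's exact test also called 0 of the 10 in each comparison. At an unadjusted p under 0.05 there was 1 member in LIP against EV (11.0% of all genes), 0 in LAP against EV (3.27%) and 2 in LIP against LAP (9.28%). The libraries of both groups did not overlap for 2 members in LIP against EV (15.6% of all genes), for 0 in LAP against EV (7.57%) and for 1 in LIP against LAP (12.8%). The median log2 fold change of the 10 was -0.04, -0.10 and -0.04 in these comparisons, beside 0.04, 0.02 and 0.02 over all genes tested. The comparisons share their groups, so that a low or high group enters 2 of them. In LAP against EV and in LIP against LAP, where libraries of the same number deviated together, the fit with the library number as a block raised the shares called to 0.297% and 6.51%, and 0 and 1 members were among them. In LIP against EV, which was not taken as paired, the same fit called 2.57% of all genes and 1 member, Cdkn2a.

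**Figure D2:**
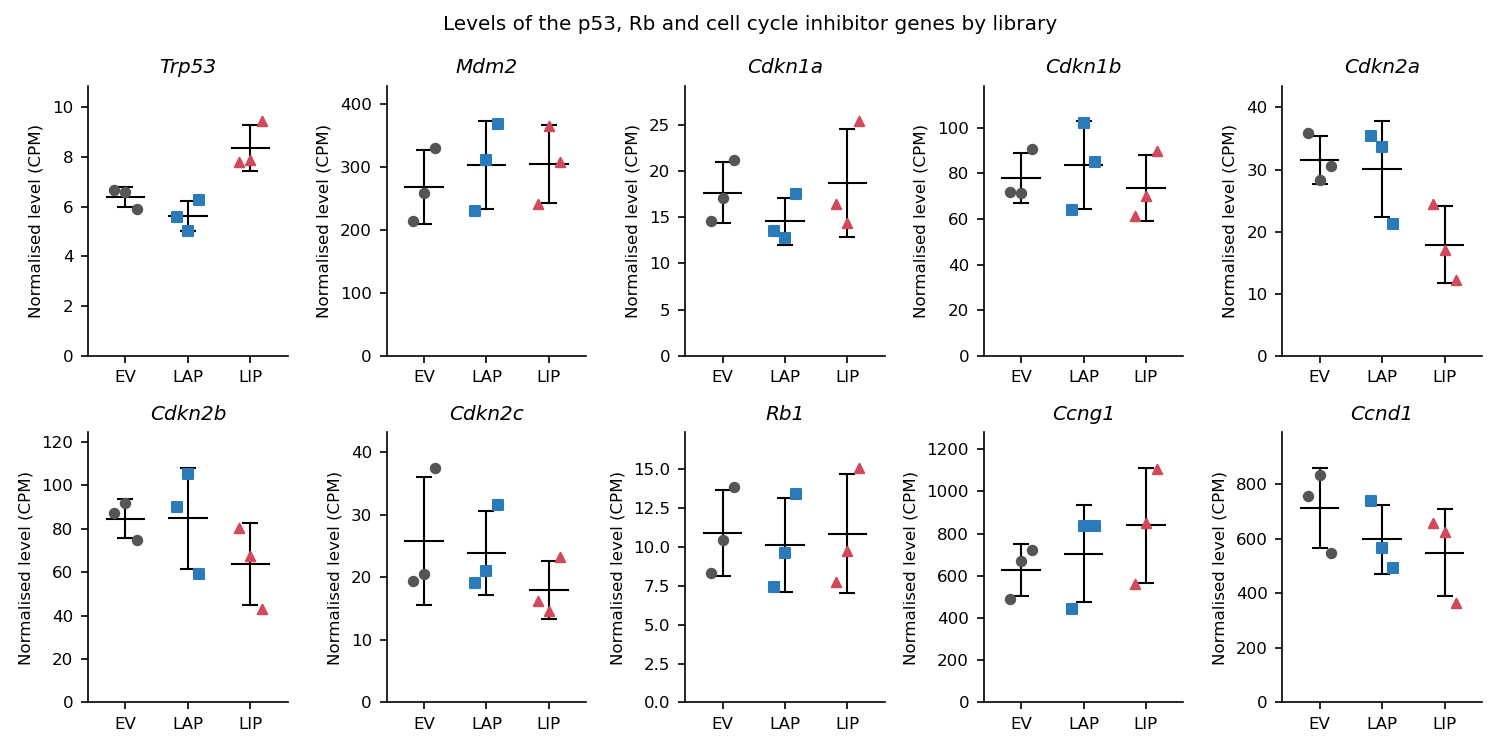
Level of each gene in CPM (y axis, from 0) in the 3 EV, 3 LAP and 3 LIP libraries (x axis, libraries 1 to 3 from left to right in each group), with the mean and SD as black lines. For Cdkn2a all LIP points, at 12.1 to 24.5 CPM, lie below all EV points, and for Trp53 all LIP points lie above those of both other groups.

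Trp53 (chr11:69580348-69591873, GRCm38.p6) had its highest values in LIP cells. Its level was 6.66, 6.61 and 5.92 CPM in EV libraries 1 to 3, 5.58, 5.03 and 6.25 CPM in the LAP libraries and 7.80, 7.86 and 9.43 CPM in the LIP libraries. The LIP libraries lay above all others, while EV and LAP overlapped. The means were 6.39 ± 0.413 CPM, 5.62 ± 0.612 CPM and 8.36 ± 0.925 CPM (SD, n = 3 each). In LIP against EV its log2 fold change was 0.39 (95% interval -0.08 to 0.85, adjusted p = 0.558 in edgeR), and in LIP against LAP 0.59 (0.01 to 1.17, adjusted p = 0.524). Trp53 had 140 to 292 counts per library, with 5.14% of its bases in a single transcript. By exact permutation (two-sided), both separations gave p = 0.1, below which 3 against 3 libraries cannot go.

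Mdm2 (chr10:117688875-117710758), the ubiquitin ligase that degrades p53, differed between the libraries of a group more than between groups. It had 215, 259 and 331 CPM in EV libraries 1 to 3, 229.7, 312 and 369 CPM in the LAP libraries and 241, 365 and 308 CPM in the LIP libraries. Library 1 was lowest in each group, and the groups overlapped. The log2 fold change was 0.18 in LIP against EV (95% interval -0.26 to 0.63) and 0.02 in LIP against LAP (-0.51 to 0.56). Both intervals include 0.

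The p53 target Cdkn1a (chr17:29090979-29100722), whose product p21 stops the cell cycle downstream of p53, had 14.6, 17.1 and 21.2 CPM in EV libraries 1 to 3, 13.5, 12.7 and 17.5 CPM in the LAP libraries and 16.5, 14.3 and 25.4 CPM in the LIP libraries. Library 3 was highest in each group, and all groups overlapped. Its log2 fold change was 0.09 in LIP against EV (standard error 0.238, 95% interval -0.43 to 0.60), -0.29 in LAP against EV (-0.71 to 0.14) and 0.38 in LIP against LAP (-0.18 to 0.93). Without LIP library 3 the first of these was -0.19, so its sign rests on that library.

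Ccng1 (chr11:40748552-40755309), a p53 target whose protein takes part in the feedback on p53, had the most counts per kb of the members with a single transcript. Its values were 489, 669.9 and 722 CPM in EV libraries 1 to 3, 442, 836 and 838 CPM in the LAP libraries and 563, 849 and 1108 CPM in the LIP libraries. The highest level of all was in LIP library 3 and the lowest in LAP library 1, and library 1 was lowest in every group. In LIP against EV the log2 fold change was 0.42 (95% interval -0.12 to 0.96, adjusted p = 0.594 in edgeR). Of the 10 members, 4 had fitted log2 fold changes above 0 in LIP against EV, between 0.09 and 0.42, beside 9834 of 18203 genes tested. These were Trp53, Mdm2, Cdkn1a and Ccng1, and none was distinguishable from 0 after adjustment. Cdkn2a, which links to p53 through p19Arf, was at -0.82, and the sign for Cdkn1a rested on LIP library 3.

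Cdkn2a (chr4:89274473-89294619), the source of p16Ink4a and p19Arf, was the member with the lowest p in LIP against EV and in LIP against LAP. It had 1151, 767 and 1043 counts in the EV libraries, 1147, 935 and 572 in the LAP libraries and 599, 519 and 376 in the LIP libraries. As levels these are 35.8, 28.3 and 30.6 CPM in EV libraries 1 to 3, 35.4, 33.6 and 21.2 CPM in the LAP libraries and 24.5, 17.0 and 12.1 CPM in the LIP libraries. All LIP libraries lay below all EV libraries, whereas LIP library 1 lay above LAP library 3. The means were 31.6 ± 3.85 CPM, 30.0 ± 7.74 CPM and 17.9 ± 6.20 CPM (SD, n = 3 each). The log2 fold change was -0.82 in LIP against EV (standard error 0.235, 95% interval -1.33 to -0.31, unadjusted p = 0.00418, adjusted p = 0.186 from edgeR), which ranked 408 among the 18203 genes. The exact permutation test gave p = 0.1, its smallest value. Without LIP library 1, Cdkn2a passed the threshold, with a log2 fold change of -1.11 and an adjusted p of 0.0440 in edgeR. With the library number as a block, it was called at -0.87 (adjusted p = 0.0244 in edgeR), as were 2.57% of all genes. Over all 13 alternatives the log2 fold change lay between -1.11 and -0.60 (adjusted p 0.0244 to 0.487).

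Against LAP cells, Cdkn2a in LIP cells had a log2 fold change of -0.73 (95% interval -1.30 to -0.16, adjusted p = 0.333 in edgeR). With the library number as a block, it was called at -0.75 (adjusted p = 0.00389), as were 6.51% of all genes, and the LIP library lay below the LAP library of the same number in 3 of 3 pairs. LAP and EV cells had similar means, with a log2 fold change of -0.08 (-0.50 to 0.34). The reads are counted per gene, so that p16Ink4a and p19Arf mRNA cannot be told apart. The summed fibroblast markers were also lower in every LIP library than in every EV library, and their part in the Cdkn2a values was not tested.

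Cdkn2b (chr4:89306289-89311032) encodes p15, an Ink4 inhibitor induced by TGF-β, and lies beside Cdkn2a. It was measured at 87.4, 92.0 and 74.6 CPM in EV libraries 1 to 3, 90.1, 105 and 59.3 CPM in the LAP libraries and 80.2, 67.7 and 43.0 CPM in the LIP libraries. Library 3 was lowest in each group, and LIP library 3 was the lowest of all. The log2 fold change was -0.41 in LIP against EV (95% interval -0.87 to 0.04, adjusted p = 0.510 in edgeR) and -0.39 in LIP against LAP (-0.92 to 0.14), with overlapping libraries in both.

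Cdkn2c (chr4:109660876-109666756), which encodes p18 and lies elsewhere on the same chromosome, had 19.3, 20.5 and 37.6 CPM in EV libraries 1 to 3, 19.1, 21.0 and 31.6 CPM in the LAP libraries and 16.2, 14.5 and 23.3 CPM in the LIP libraries. Library 3 was highest in each group, and the groups overlapped. Its log2 fold change was -0.52 in LIP against EV (95% interval -1.10 to 0.06, adjusted p = 0.526 in edgeR). The 3 Ink4 genes thus all had fitted values below 0 in LIP against EV, from -0.82 to -0.41, beside 8369 of 18203 genes tested. Of these Ink4 genes, 1 had an unadjusted p under 0.05, beside 11.0% of all genes. In LAP against EV their log2 fold changes were -0.08, -0.01 and -0.12.

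**Figure D3:**
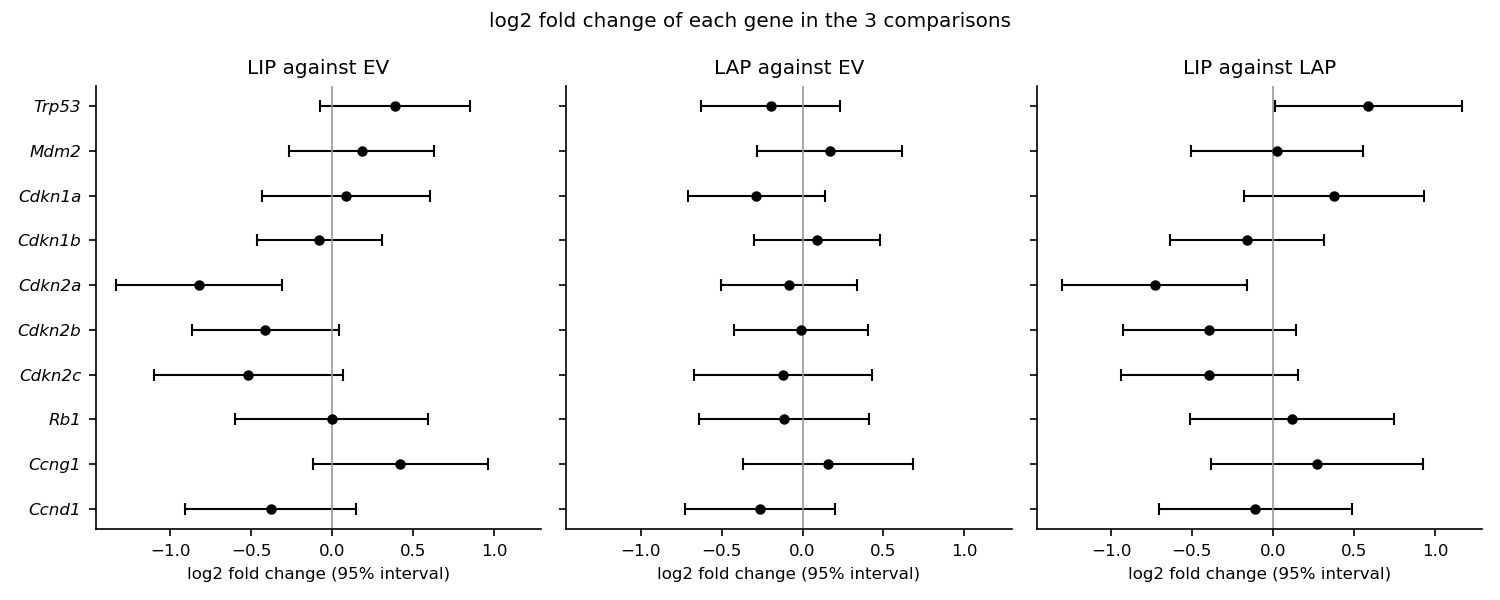
Fitted log2 fold change of each gene (points) with its 95% interval (lines) in LIP against EV, LAP against EV and LIP against LAP (panels). The interval excludes 0 for Cdkn2a in both comparisons with LIP, at -0.82 and -0.73, and for Trp53 in LIP against LAP, at 0.59, before any adjustment for the number of genes.

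Cdkn1b (chr6:134920401-134925525), the gene of the CDK inhibitor p27, had 71.8, 71.3 and 90.4 CPM in EV libraries 1 to 3, 63.8, 102 and 85.0 CPM in the LAP libraries and 61.4, 69.9 and 89.5 CPM in the LIP libraries. Its groups overlapped, and it had the smallest spread of log2 CPM of the 10 genes over the 9 libraries (SD 0.252). The log2 fold change was -0.08 in LIP against EV (95% interval -0.47 to 0.31) and 0.09 in LAP against EV (-0.30 to 0.48).

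Rb1 (chr14:73192858-73325951) had the value closest to 0 in LIP against EV. Its level was 8.34, 10.4 and 13.9 CPM in EV libraries 1 to 3, 7.40, 9.59 and 13.4 CPM in the LAP libraries and 7.71, 9.73 and 15.1 CPM in the LIP libraries. Libraries 1, 2 and 3 stood in the same order in every group, and the spread within a group exceeded the difference between group means, 10.9 ± 2.78 CPM, 10.1 ± 3.03 CPM and 10.8 ± 3.81 CPM (SD, n = 3 each). The log2 fold change was -0.00345 in LIP against EV (95% interval -0.60 to 0.60), so that differences of about 1.5-fold in either direction cannot be told from none here. Rb1 shares 408 and 488 exonic bases with Lpar6 and Rcbtb2 on the opposite strand, and as the library kit does not mark strand, reads there cannot be assigned.

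Ccnd1 (chr7:144929931-144939831), cyclin D1, had 755, 835 and 549 CPM in EV libraries 1 to 3, 738, 565 and 492 CPM in the LAP libraries and 657, 623 and 366 CPM in the LIP libraries. Library 3 was lowest in each group, and LIP library 3 was the lowest of the 9. The means were 713 ± 147 CPM, 598 ± 126 CPM and 549 ± 159 CPM (SD, n = 3 each). In LIP against EV the log2 fold change was -0.38 (95% interval -0.91 to 0.15, adjusted p = 0.641 in edgeR), and in LAP against EV -0.26 (-0.72 to 0.20). The annotation places 1100 bases of the Ccnd1 exons opposite those of LTO1.

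The number of a library, 1, 2 or 3, went along with the level of several members in all groups. Library 3 was the highest of its group in EV, LAP and LIP for Cdkn1a, Cdkn2c, Rb1 and Ccng1, and library 1 for Cdkn2a, which makes 5 of 10 genes with the same number highest everywhere, beside 26.8% of 10252 genes whose counts averaged 50 or more. The same number was lowest in all groups for 5 genes, library 1 for Mdm2, Rb1 and Ccng1 and library 3 for Cdkn2b and Ccnd1, beside 25.2% of all. Both held for Rb1 and Ccng1, beside 9.5%. Cdkn2b and Ccnd1 were thus at their lowest in the libraries where Rb1, Ccng1, Cdkn1a and Cdkn2c were at their highest. For Rb1, library 3 exceeded the mean of its group by 0.38 to 0.53 on the log2 scale, more than any fitted difference between the groups. Whether libraries of one number were grown or prepared together is not given in the sources used here.

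**Figure D4:**
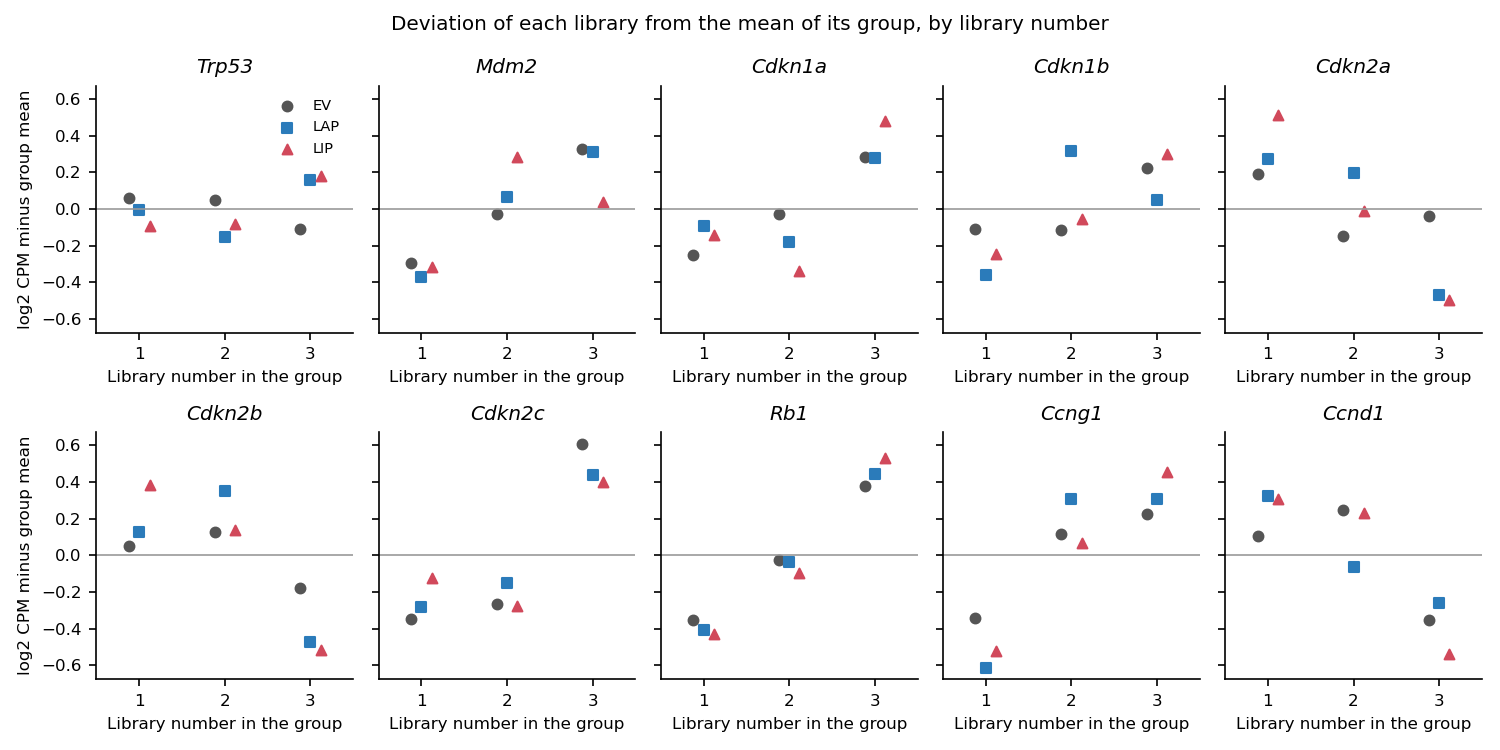
Deviation of each library from the mean log2 CPM of its own group (y axis) by library number (x axis) for the 10 genes, with EV as circles, LAP as squares and LIP as triangles. Points of the same number lie together for Rb1, Cdkn2c and Ccng1, whereas Trp53 shows no common order.

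The genes whose profile over the 9 libraries lay closest to that of Cdkn2a, among 10251 genes whose counts averaged 50 or more, were Tnfrsf11a, Sept5 and Pcbp3, with a root mean square difference of mean-centred log2 CPM of 0.104, 0.136 and 0.153. Tnfrsf11a (chr1:105780673-105849444), the receptor RANK, had 13.8, 11.9 and 10.8 CPM in EV libraries 1 to 3, 13.9, 11.7 and 8.95 CPM in the LAP libraries and 9.92, 6.39 and 4.20 CPM in the LIP libraries. As for Cdkn2a, its level was highest in library 1 and lowest in LIP library 3. Cdkn2c, the other member chosen for its wide spread, lay closest to Dpysl2, Trafd1 and Ccz1 (0.119, 0.135 and 0.138). Dpysl2 had 31.1, 29.2 and 52.1 CPM in EV libraries 1 to 3, 30.1, 25.0 and 46.3 CPM in the LAP libraries and 23.8, 19.6 and 33.1 CPM in the LIP libraries, with library 3 highest in each group.

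Of the other genes of these pathways, 1 passed the threshold in edgeR's quasi-likelihood test, in LIP against EV and in LIP against LAP. In these comparisons 0.396% and 1.05% of all genes passed it, so the count is not read as a result about the pathways. Among 37 further p53 target genes, Dram1 (chr10:88322801-88364359), a lysosomal membrane protein that promotes autophagy, was lower in LIP cells. Its level was 44.2, 37.6 and 37.5 CPM in EV libraries 1 to 3, 54.1, 45.8 and 45.4 CPM in the LAP libraries and 23.8, 15.6 and 13.9 CPM in the LIP libraries. Every LIP library lay below every EV and LAP library. Its log2 fold change was -1.16 in LIP against EV (standard error 0.210, adjusted p = 0.0397 in edgeR), -1.43 in LIP against LAP (0.242, adjusted p = 0.00698) and 0.27 in LAP against EV (adjusted p = 0.918). The call in LIP against EV was lost without EV library 1, 2 or 3 or LIP library 2 in turn (adjusted p 0.0869, 0.144, 0.0518 and 0.114), and also with total counts only as the scaling (0.0669) and with edgeR's filterByExpr on low counts (0.139). That in LIP against LAP was lost without LAP library 2 (0.0727) and with filterByExpr (0.127), and the fold change stayed below 0 throughout.

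The p53 targets did not move in 1 direction. In LIP against EV, 21 had a log2 fold change above 0 and 16 below, with a median of 0.08, and at an unadjusted p under 0.05 there were 5 above (Ddb2, Lrdd, Perp, Plk2 and Rps27l) and 5 below (Dram1, Pltp, Pmaip1, Sesn1 and Tnfrsf10b), beside 4.23% and 6.75% of all genes. Pmaip1, the death-inducing BH3 protein Noxa, stood at 0.433 CPM in LIP, 1.65 CPM in EV and 1.24 CPM in LAP, and had an adjusted p of 0.131 in edgeR, 0.0422 in DESeq2 and 0.0447 in edgeR's exact test for LIP against EV. Rps27l, a p53-induced ribosomal protein paralogue, was the target with the lowest p in LAP against EV, at 187, 215 and 191 CPM in EV libraries 1 to 3, 183, 608 and 223 CPM in the LAP libraries and 208, 767 and 232 CPM in the LIP libraries. LAP library 2 and LIP library 2 stood far above the other 7, and without LAP library 2 its log2 fold change in LAP against EV was 0.0357. In LIP against LAP, 24 targets lay above 0 and 13 below, and with the library number as a block 2 were higher (Ddb2 and Lrdd, at 0.77 and 0.82) and 3 lower (Dram1, Pmaip1 and Fas, at -1.46, -1.51 and -0.76), beside 6.51% of all genes. Ddb2 acts in nucleotide excision repair and Lrdd is Pidd1, a caspase activation protein.

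Among 12 tested p53 regulators, 0 passed the threshold in any comparison by any of the 3 tools. By edgeR's quasi-likelihood test, 0.396% of all genes passed it in LIP against EV, 0.0606% in LAP against EV and 1.05% in LIP against LAP. At these shares, 0 of 12 is no result about the regulators. At an unadjusted p under 0.05 in LIP against EV there was 1 (11.0% of all genes), namely Atm, the DNA damage kinase. Atm had 94.2, 89.0 and 105 CPM in EV libraries 1 to 3, 87.6, 68.0 and 119 CPM in the LAP libraries and 114, 124 and 134 CPM in the LIP libraries and a log2 fold change of 0.37 in LIP against EV (adjusted p = 0.378 in edgeR), and all LIP libraries lay above the EV libraries. Kat5, an acetyltransferase of p53, had the lowest p in LAP against EV (log2 fold change 0.27). Trp63 and Trp73, the p53 relatives, had 0 counts, which, as for Myc and Vegfa, are not read as absence.

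On the Rb side, 0 of 8 G1 cyclins and CDKs, 0 of 16 genes of the Rb family, E2F and DREAM complex, 0 of 19 E2F target genes and 0 of 1 tested further CDK inhibitors passed the threshold in each comparison by edgeR's quasi-likelihood test, its exact test and DESeq2. Over all genes, the quasi-likelihood test called 0.396% in LIP against EV, 0.0606% in LAP against EV and 1.05% in LIP against LAP. At these shares, counts of 0 are no result about the lists. At an unadjusted p under 0.05 in LIP against EV there were 1, 1, 2 and 1 genes in these lists, beside 11.0% of all genes tested. Cyclin E1 (Ccne1) had 59.5, 60.3 and 62.2 CPM in EV libraries 1 to 3, 72.2, 65.2 and 58.3 CPM in the LAP libraries and 54.7, 41.0 and 20.9 CPM in the LIP libraries, so that all LIP libraries lay below the rest, and the lowest was LIP library 3. Its log2 fold change was -0.65 in LIP against EV (adjusted p = 0.395 in edgeR) and -0.73 in LIP against LAP, where the block fit called it (-0.83, adjusted p = 7.96e-04). Cdk6, the partner kinase of cyclin D1, had 40.9, 50.5 and 54.5 CPM in EV libraries 1 to 3, 29.9, 30.6 and 53.7 CPM in the LAP libraries and 47.6, 72.5 and 68.9 CPM in the LIP libraries. The blocked fit called it higher in LIP against LAP (0.77, adjusted p = 0.00169), and in the fit without the block it was 0.74 (adjusted p = 0.270 in edgeR), or 1.12 and called without LAP library 3 (0.0152).

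The E2F member E2f2 had 11.4, 13.9 and 14.6 CPM in EV libraries 1 to 3, 11.7, 11.7 and 13.9 CPM in the LAP libraries and 13.7, 24.1 and 24.0 CPM in the LIP libraries, and the E2F target Mybl2, a factor of late G1 and S phase, 74.3, 76.0 and 59.1 CPM in EV libraries 1 to 3, 66.6, 62.8 and 60.9 CPM in the LAP libraries and 109, 143 and 73.0 CPM in the LIP libraries. In LIP against EV their log2 fold changes were 0.63 and 0.63 (adjusted p = 0.335 and 0.299 in edgeR), and the LIP libraries overlapped with EV for both. In LIP against LAP both passed the threshold with the block (0.70 and 0.74, adjusted p = 0.0154 and 0.00285). Without LIP library 3, Mybl2 also passed it unblocked, at 0.86 in LIP against EV (adjusted p = 0.0222) and 1.01 in LIP against LAP (0.00844). E2f8 and Pcna had the lowest p of their lists in LAP against EV, at -0.28 and 0.30. The median log2 fold change over all 19 E2F targets was 0.00245 in LIP against EV, with 10 genes above 0 and 9 below. Cdkn2d, the Ink4 gene of p19Ink4d, was at -0.36 in LIP against EV (adjusted p = 0.443 in edgeR), at -0.22 in LAP against EV and at -0.13 in LIP against LAP. Cdkn1c, the gene of p57, had 0 counts in every library, which is likewise not read as absence.

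Around Cdkn2a, 0 of 17 tested regulators of Ink4a and Arf and 0 of 7 neighbours of the locus on chromosome 4 passed the threshold in each comparison by these 3 tools. These counts are no result about either list, as edgeR's quasi-likelihood test called 0.396%, 0.0606% and 1.05% of all genes in LIP against EV, LAP against EV and LIP against LAP. Ets2, a factor that activates the p16Ink4a promoter, had the lowest p among the regulators in LIP against EV, with 66.6, 73.4 and 98.9 CPM in EV libraries 1 to 3, 77.9, 55.0 and 94.3 CPM in the LAP libraries and 66.3, 45.9 and 44.6 CPM in the LIP libraries. LIP libraries lay below the EV libraries, and the log2 fold change was -0.61 (adjusted p = 0.263 in edgeR). Tbx2, a repressor of the locus, was near the floor, at 0.476 CPM in EV. All 7 neighbours had log2 fold changes below 0 in LIP against EV, with a median of -0.29, beside 8369 of 18203 genes tested. Of these neighbours, 0 had an unadjusted p under 0.05. The LIP and EV libraries did not overlap for 1 of them (15.6% of all genes), and 2, Dmrta1 and Elavl2, had at most 9 counts in any library. BC057079, the gene of focadhesin, had the lowest p (log2 fold change -0.33, adjusted p = 0.490 in edgeR), and Mtap, next to Cdkn2a, was at -0.07. In LIP against LAP Klhl9 had the lowest p, at -0.40.

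**Figure D5:**
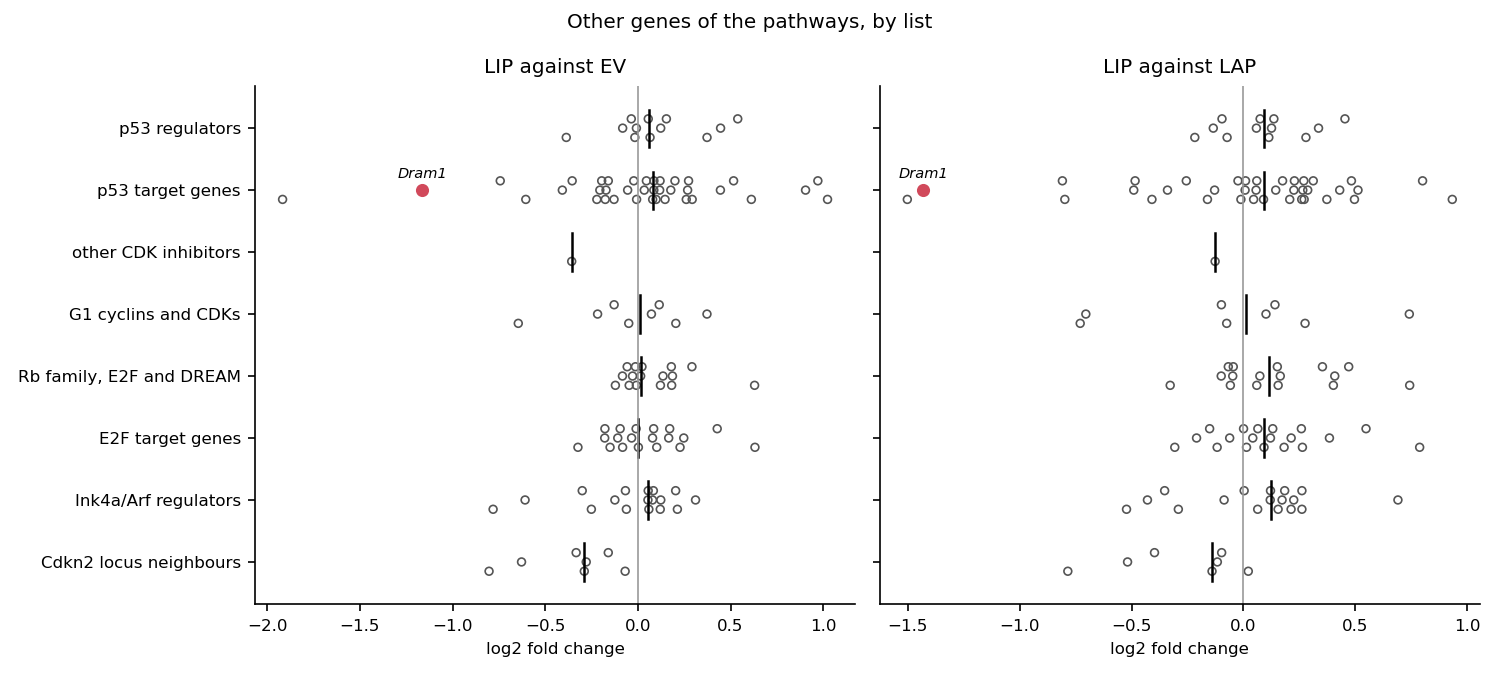
log2 fold change (x axis) of each tested gene of the 8 pathway lists (y axis) in LIP against EV and in LIP against LAP (panels), with the median of a list as a black line. The filled red point, Dram1 at -1.16 and -1.43, is the gene past the adjusted threshold, open points did not pass it.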

How the data were processed

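Poly-A RNA libraries (TruSeq RNA v2) of 3 EV, 3 LAP and 3 LIP samples were sequenced as single-end reads of 50 bases. Per the submitters' processing notes, bcl2fastq 1.8.3, TopHat 1.4.1 and HTSeq 0.5.4 were used, with mm10 and a RefSeq annotation. The authors deposited raw counts, reads per gene symbol without normalisation, and 0 columns were left unused. The strand setting and the treatment of multiply assigned reads are not given in the sources used here.

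Each column was matched to its sample by title. Genes with at least 1 count in the 6 libraries compared were tested with edgeR 4.0.16 (R 4.3.3) after TMM scaling, by the quasi-likelihood test without covariates, with Benjamini-Hochberg adjustment over all genes and a threshold of 0.05. Standard errors were taken as the fitted log2 fold change over the root of its F value. Intervals cover 95%. The levels of single members were also compared by exact permutation (two-sided). The script was tested on simulated data. The same results were recomputed with DESeq2 1.42.0, with edgeR's exact test, DESeq2 size factors, total counts only, filterByExpr, all 9 libraries in one model, the replicate number as a block, and each library left out. The list genes were added to these alternatives after seeing the data.

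Libraries carry the numbers 1 to 3 in the labels. Across genes, deviations from the group mean correlated between libraries of the same number at r = 0.210 to 0.524 in LAP against EV and 0.413 to 0.558 in LIP against LAP, which were taken as paired, and at -0.121 to 0.290 in LIP against EV, which was not. Named are all 10 members, the list genes past the threshold and the one with the lowest p per list and comparison, and the 3 genes closest to the 2 members of widest spread. Genes that only the block fit or another tool called, and those at an unadjusted p under 0.05 among the p53 targets, as well as Mtap, were named after their values were seen. Members and lists were chosen with earlier results of these data known. Positions and promoters come from RefSeq on GRCm38.p6, where 20746 symbols and all 10 members were found, and exon structure from GENCODE M21 transcripts with a RefSeq link. Figures were drawn with matplotlib 3.10.9.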

Additional observations from a re-analysis of the deposited data

Results flagged for a closer look

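Dram1 had a lower level in LIP than in LAP cells, while LAP against EV did not pass the threshold. Its log2 fold change was -1.16 in LIP against EV and 0.27 in LAP against EV, and the direct test of the difference, LIP against LAP, gave -1.43 (standard error 0.242, adjusted p = 0.00698 in edgeR). It was lower in 3 of 3 LIP libraries than in any LAP library. The gene was named because it passed the threshold among 37 p53 targets, beside 1.05% of all genes in LIP against LAP. Leaving out any 1 library, the value in LIP against LAP lay between -1.70 and -1.28, but the call was lost without LAP library 2 (adjusted p = 0.0727 in edgeR), and it was also lost with filterByExpr (0.127).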

How the results depend on the processing

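No called value changed direction. The count of members called stayed at 0 under every alternative except with the replicate number as a block (1 in LIP against EV and 1 in LIP against LAP, Cdkn2a in both, with adjusted p 0.0244 and 0.00389) and without a library in turn in LIP against EV (0 to 1, with Cdkn2a called without LIP library 1). Counts over all genes depended more on the processing. In LIP against EV, 72 genes became 321 with DESeq2, 301 with the exact test, 36 with total counts only, 4 with filterByExpr, 467 with the replicate block and 22 to 367 without 1 library, the lowest without EV library 2 and the highest without LIP library 3. In LAP against EV, 11 became 26, 33, 3 with filterByExpr, 3 with all 9 libraries in the model, 54 with the block and 6 to 62 without 1 library. In LIP against LAP, 190 became 113 with total counts only, 2 with filterByExpr, 1183 with the block and 7 to 448 without 1 library, the lowest without LAP library 2. The cause of these shifts was not tested. LIP against EV was not taken as paired, as 1 of 3 same-number correlations was negative, and 4 of 6 libraries correlated best with their own number. The same-number correlation was 0.290 for library 1, -0.121 for library 2 and 0.231 for library 3. These values do not settle whether EV and LIP libraries of one number share a batch. Of the single-gene values, 949 kept their side of the threshold and either kept direction or changed sign by less than their standard error. A further 8 lost a call, all for Dram1, 10 gained one, and 8 that were not called changed sign by more than their standard error. With 140 to 292 counts, Trp53 had the least depth of the members.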

Other observations

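Some genes stood apart in LAP library 2, and some of these in LIP library 2 as well, but not in EV library 2. S100a4, a calcium-binding protein listed as a fibroblast marker, had 1725, 1921 and 1544 CPM in EV libraries 1 to 3, 1855, 4862 and 1566 CPM in the LAP libraries and 1478, 2485 and 1312 CPM in the LIP libraries, and Pcna, the DNA polymerase clamp and an E2F target, 409, 465 and 395 CPM in EV libraries 1 to 3, 419, 742 and 418 CPM in the LAP libraries and 489, 449 and 402 CPM in the LIP libraries. LAP library 2 was the highest of all 9 for both. Rps27l was likewise highest in LIP library 2 and LAP library 2. Without LAP library 2, the log2 fold change of Pcna in LAP against EV was -0.0149 instead of 0.30. Of the fibroblast markers, Col1a2, a chain of type I collagen, had 8119.9, 7397 and 7508 CPM in EV libraries 1 to 3, 9232, 5670.2 and 6727 CPM in the LAP libraries and 4386, 2096 and 4298 CPM in the LIP libraries, and its log2 fold change in LIP against EV was -1.09 (adjusted p = 0.138 in edgeR, 0.00853 in DESeq2 and 0.0156 in edgeR's exact test). With the library number as a block, 7 of the 10 fibroblast markers passed the threshold in LIP against LAP, all lower, from Pdgfrb at -1.75 to Col3a1 at -0.63, beside 6.51% of all genes tested.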
